A study of Mus musculus with 8 samples.

Results

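The interferon-stimulated genes described here are 49 mouse genes that cells are known to switch on after interferon signalling, taken by symbol from a list of gene names. All 49 were found among the 15576 genes of the count table, and all 49 were among the 11937 genes with enough counts to be tested. Their RNA was measured by bulk RNA-seq in leukemic stem cells (LSCs) sorted from the bone marrow of mice with chronic myeloid leukemia (CML), either untreated (CML, 4 libraries) or given imatinib (CML-TKI, 4 libraries). All animals were BCR-ABL×SCL-tTA double transgenic mice, labelled as C57BL/6, in which the SCL promoter drives the tetracycline-controlled activator, so that BCR-ABL is expressed in stem and progenitor cells once tetracycline is withdrawn. Imatinib, a tyrosine kinase inhibitor (TKI) that blocks BCR-ABL, was given by gavage on alternate days for 4 weeks at 400 mg/kg according to the labels, and another dose also appears in the study's methods. The labels give the same sort gate for all 8 libraries, with CD150-negative and CD48-positive cells. A figure legend of the study defines LSCs by the opposite pattern of these markers, so which cells were sorted cannot be told from these sources. Both groups carry the transgenes, and no library from normal mice was used here. The fourth CML column carries the number 5, which no label gives, and is called CML 5. No source says whether each library came from its own animal, so the p-values measure only the spread between these libraries, which may be partly technical.

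Interferons are secreted proteins that bind receptors linked to Janus kinases. Type I interferons lead to a transcription factor complex with STAT2 and IRF9 that binds the interferon-stimulated response element (ISRE), and interferon gamma acts through the gamma-activated site (GAS). The genes switched on in this way encode sensors of foreign RNA, enzymes and GTPases that restrict viruses and intracellular microbes, and the transcription factors of the pathway itself. In the bone marrow, interferons are known to push quiescent hematopoietic stem cells into cycle, and interferon alpha was a treatment for CML before kinase inhibitors.

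Promoters are shown for 4 members with different outcomes in the comparison, Gbp2 and Igtp, which were lower in CML-TKI LSCs, Tgtp1, which was listed at 0 in 3 CML-TKI libraries, and Isg15, which was low in both groups. The sequences come from RefSeq (GRCm38.p6), run 5′ to 3′ on the strand of the gene from 250 bases before to 50 bases after the annotated start, and carry in capitals each match to the ISRE core GAAANNGAAA or the GAS core TTCNNNGAA on either strand. The window of Gbp2 lies at chr3:142620413-142620712 (plus strand), that of Igtp at chr11:58199306-58199605 (plus strand), that of Tgtp1 at chr11:48992197-48992496 (minus strand) and that of Isg15 at chr4:156200769-156201068 (minus strand).
Gbp2: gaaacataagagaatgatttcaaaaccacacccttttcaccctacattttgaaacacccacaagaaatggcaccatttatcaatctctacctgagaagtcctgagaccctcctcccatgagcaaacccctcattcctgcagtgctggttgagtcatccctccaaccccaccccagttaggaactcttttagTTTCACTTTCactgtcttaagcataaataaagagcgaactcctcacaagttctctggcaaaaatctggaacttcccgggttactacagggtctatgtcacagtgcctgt
Igtp: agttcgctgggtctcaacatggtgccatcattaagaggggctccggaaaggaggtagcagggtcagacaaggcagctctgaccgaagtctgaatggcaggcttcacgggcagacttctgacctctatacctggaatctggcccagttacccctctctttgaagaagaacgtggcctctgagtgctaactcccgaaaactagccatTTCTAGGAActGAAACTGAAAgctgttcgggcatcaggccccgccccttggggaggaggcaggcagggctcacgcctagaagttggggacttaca
Tgtp1: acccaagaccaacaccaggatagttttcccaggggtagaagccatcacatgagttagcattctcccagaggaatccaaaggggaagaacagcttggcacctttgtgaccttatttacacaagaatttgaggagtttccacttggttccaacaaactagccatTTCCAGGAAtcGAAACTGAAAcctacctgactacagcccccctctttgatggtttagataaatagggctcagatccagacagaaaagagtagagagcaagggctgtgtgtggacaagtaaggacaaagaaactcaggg
Isg15: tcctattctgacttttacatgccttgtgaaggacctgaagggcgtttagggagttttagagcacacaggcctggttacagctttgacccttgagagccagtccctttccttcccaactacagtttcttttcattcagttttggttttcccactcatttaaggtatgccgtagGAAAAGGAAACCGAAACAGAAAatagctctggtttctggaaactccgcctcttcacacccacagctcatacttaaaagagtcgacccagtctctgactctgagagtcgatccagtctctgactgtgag
The promoter of Gbp2 holds an ISRE core on the opposite strand that begins 59 bases before the start. Igtp and Tgtp1, which both encode immunity-related GTPases, hold the same arrangement of a GAS core followed by an ISRE core with the same letters, GAAACTGAAA, which begins 34 bases before the start in Igtp and 77 bases before it in Tgtp1. Isg15 holds 3 ISRE cores that overlap, which begin 78, 72 and 66 bases before its start.

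A promoter was listed for 39 of the 49 genes. The ISRE core was present in 20 of these 39 (51.3%), against 1079 of all 27025 genes with a promoter (3.99%). The GAS core was present in 11 of the 39 (28.2%) and in 9.55% of all genes, and both cores in 7 of the 39 (17.9%) and in 0.614% of all genes. In 2 members a match to one core overlapped a match to the other. The fold changes (CML-TKI over CML, described further on) are set beside each core as a description. Of the 20 members with the ISRE core, 3 passed the test as lower in CML-TKI LSCs (3.93% of all genes did), with a median log2 fold change of −0.41. Of the 19 without it 3 passed, with a median of −0.64. For the GAS core, 1 of the 11 members with it passed, with a median of −0.64, and 5 of the 28 without it, with a median of −0.50. These matches describe letters in a window and were not tested as binding sites.

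The libraries held between 1041552 total counts (CML-TKI 3) and 8620101 (CML 5), and the ribosomal RNA gene Rn45s took 20.2% to 38.3% of the counts in CML libraries and 9.23% to 22.5% in CML-TKI libraries. Levels are given as CPM (counts scaled to library size) after TMM scaling, which adjusts library sizes for differences in composition. The floor of detection was set at 3 counts, equal to 0.409 to 0.580 CPM in the CML libraries and 0.570, 0.930, 3.29 and 0.780 CPM in CML-TKI 1 to 4, and covers counting error only. The biological coefficient of variation across genes was 29.9% among the CML libraries, 11.4% when CML 5 was left out, and 70.1% among the CML-TKI libraries.

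Cell markers also differed between the groups. The summed level of 14 stem cell genes was 2427 to 2841 CPM in CML and 253 to 814 CPM in CML-TKI libraries, with 6 of 13 tested called lower, and Hoxb5 was at 0 in 3 CML-TKI libraries while Mecom, Procr, Fgd5 and Esam were at 0 in 2. Kit, a marker of the sort, was itself lower (log2 fold change −1.92 ± 0.21 SE, edgeR adjusted p = 0.00087). Slamf1, which encodes the sort marker CD150, measured 29 to 37.7 CPM in CML and 0.620 to 6.58 CPM in CML-TKI libraries (log2 fold change −3.42, edgeR adjusted p = 0.00797). The summed level of 12 granulocyte genes was 163 to 271 CPM in CML and 1495 to 8595 CPM in CML-TKI libraries (11 of 12 called higher), and that of 9 monocyte and macrophage genes was 235 to 323 CPM and 1406 to 7229 CPM (8 of 9 called higher). Cebpe of the first list and Ly86 and Cx3cr1 of the second had a median of at most 3 counts in CML and entered the test through the CML-TKI libraries. CML-TKI 1 had the lowest granulocyte and monocyte sums of its group, and CML-TKI 3 had an erythroid sum of 50625 CPM against 189 to 1026 CPM in the other 7 libraries. Megakaryocyte genes summed to 1223 to 1485 CPM in CML and 48.7 to 599.9 CPM in CML-TKI libraries (2 of 7 called lower), and genes of B, T and NK cells to 31.7 to 49.4 CPM and 27.5 to 418 CPM. Markers of plasmacytoid dendritic cells, the strongest producers of interferon in blood, gave sums that were mostly Tcf4 except in CML-TKI 3. Tcf4 was at 34.2 to 100.1 CPM in CML and 31.9 to 103 CPM in CML-TKI libraries, with 39.5 CPM in CML-TKI 3. The other 4 genes summed to 0.550 to 2.71 CPM in CML and to 6.46, 0, 40.6 and 22.4 CPM in CML-TKI 1 to 4, and Siglech, which defines these cells, was at 0 in 3 CML and 2 CML-TKI libraries. The part of these marker differences in the results on the interferon-stimulated genes was not tested. In bulk libraries, fewer cells that express a gene and less RNA of it per cell cannot be told apart.

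The comparison of CML-TKI with CML LSCs asks which interferon-stimulated genes differ between cells sorted as LSCs from imatinib-treated and from untreated mice. After imatinib, 6 of the 49 genes were lower and none was higher. The genes that fell were Gbp2, Ifi47 and Igtp (GTPases of cell-autonomous immunity), Ifih1 (the RNA sensor MDA5), Ifi44 and Lgals3bp, by 3.10-fold (Igtp) to 9.86-fold (Ifi44). The background is 3.93% of all 11937 genes called lower (469 genes) and 6.29% called higher (751 genes) in the same fit (edgeR quasi-likelihood test, Benjamini-Hochberg adjusted p under 0.05). The count of 0 members called higher was also 0 with DESeq2 and with limma-voom, and 1 member was higher at an unadjusted p under 0.05, against 13.7% of all genes. DESeq2 called 12 members lower, against 8.6% of all genes, and limma-voom 17, against 10.9%. At that unadjusted threshold 18 members were lower, against 12.1% of all genes. Another 7 members were lower with an adjusted p between 0.05 and 0.1, against 3.29% of all genes. With CML 1 to 3 summed to 1 library, a setting with fewer samples, edgeR called 0 members lower (9 at an unadjusted p under 0.05) and 0.159% of all genes.

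The direction was mostly negative across the 49 genes. The log2 fold change (CML-TKI over CML) was negative for 38 members and positive for 11, with a median of −0.64, while the median over all tested genes was −0.00026 and 50% of them were negative. For 17 members all 4 CML-TKI libraries lay below all 4 CML libraries, against 13.1% of all genes, and for no member did they all lie above, against 10.3% of all genes. The members ranged from −3.62 (Iigp1) to 1.55 (Ifit3).

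**Figure D1:**
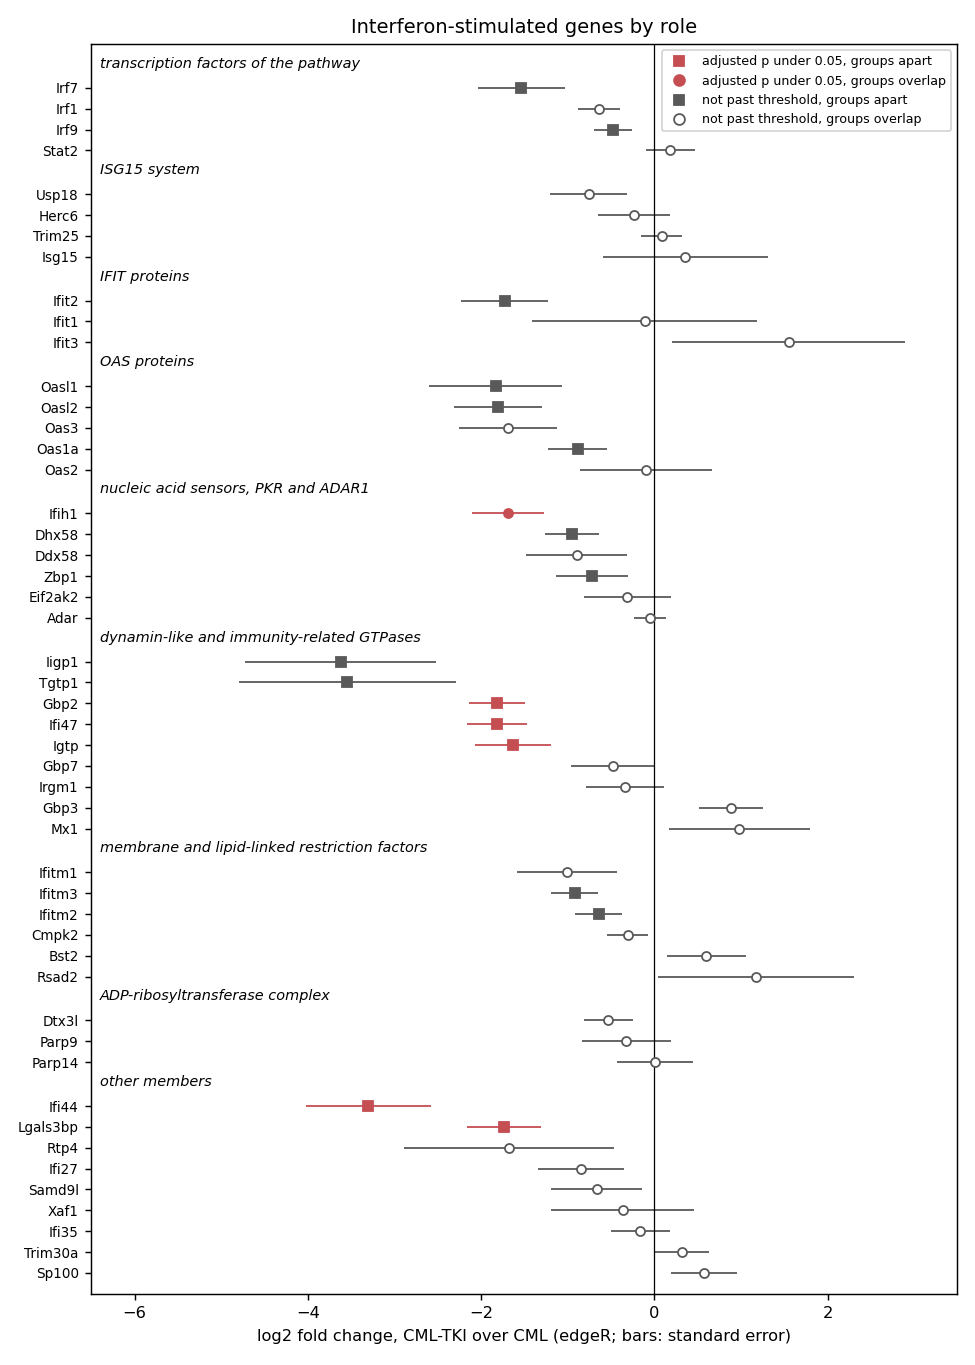
Log2 fold changes of the 49 interferon-stimulated genes in CML-TKI over CML LSCs, grouped by role, with bars for the standard error of the edgeR fit. The 6 genes with an adjusted p under 0.05 are red and lie left of zero, and squares mark the 17 genes whose 4 CML-TKI libraries all lie below the 4 CML libraries.

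The GTPases held 3 of the 6 genes that fell (3.93% of all genes were called lower). Guanylate-binding proteins and immunity-related GTPases coat vacuoles that hold microbes. Of the 9 members of this group 7 had a negative fold change (50% of all genes) and 5 showed no overlap between the groups (13.1% of all genes), with a median log2 fold change of −1.63. Gbp2 (chr3:142620663-142638008, GRCm38 as for all gene positions given here) measured 59.9, 53.1, 40.6 and 32.4 CPM in CML 1, 2, 3 and 5, and 14.6, 16.1, 7.67 and 13.3 CPM in CML-TKI 1 to 4. Every CML-TKI library was below every CML library, and the CML level was 3.52 times the CML-TKI level in the fit (log2 fold change −1.82 ± 0.33 SE, edgeR adjusted p = 0.00837). Ifi47 (chr11:49076587-49096987), also known as IRGD, measured 234, 229.7, 202 and 245 CPM in the CML libraries and 41.0, 38.1, 65.8 and 114 CPM in the CML-TKI libraries. Its CML libraries differed little among themselves and the groups stood apart, with CML-TKI 4 closest to CML (log2 fold change −1.81 ± 0.35 SE, edgeR adjusted p = 0.0109). Igtp (chr11:58199556-58207592), which encodes IRGM3, measured 61.8, 61.6, 55.3 and 48.0 CPM in CML and 24.7, 5.89, 30.7 and 13.8 CPM in CML-TKI libraries. The groups were again apart, although the CML-TKI values spread over a wide range (log2 fold change −1.63 ± 0.44 SE, edgeR adjusted p = 0.0452).

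Iigp1 and Tgtp1 had the most negative fitted values over all libraries, within their errors of that of Ifi44, and neither passed the threshold. Iigp1, which encodes the effector IRGA6, measured 62.6, 72, 52.9 and 23.0 CPM in CML and 8.93, 0, 9.86 and 0 CPM in CML-TKI libraries (log2 fold change −3.62 ± 1.1 SE, edgeR adjusted p = 0.0663). Tgtp1, the T cell-specific GTPase IRGB6, measured 119, 128, 91.6 and 71.8 CPM in CML, 30.8 CPM in CML-TKI 1 and 0 CPM in the other CML-TKI libraries (log2 fold change −3.55 ± 1.25 SE, edgeR adjusted p = 0.105). Both were well detected in every CML library, and neither had a count in CML-TKI 2 or CML-TKI 4, where the floor of 3 counts allows up to 0.930 and 0.780 CPM. Tgtp1 has a near-identical copy, Tgtp2, which the counting could split from it. The sum of the 2 copies was 413, 398, 326 and 204 CPM in CML and 70.8, 7.13, 31.8 and 27.8 CPM in CML-TKI libraries, so that the groups were also apart when the copies were added. Without CML-TKI 1 both genes were called lower, Iigp1 with a log2 fold change of −5.03 (edgeR adjusted p = 0.0191) and Tgtp1, which then has no count in any CML-TKI library and no fold, with an adjusted p of 9.35e-05. This was the only 1 of 8 such fits that called them, it leaves out the library with all counts of Tgtp1 in CML-TKI, and the other fits reached an adjusted p of 0.176 for Iigp1 and 0.242 for Tgtp1. The other members of this group overlapped between the groups, with log2 fold changes of −0.48 for Gbp7, 0.89 for Gbp3 and 0.98 for Mx1, which RefSeq lists as a transcribed pseudogene and which had at most 5.58 CPM in 7 of 8 libraries. Irgm1, a regulator of the other immunity-related GTPases, was at 151 CPM in CML-TKI 1, above every CML library, and at 32.9 to 57.5 CPM in the other CML-TKI libraries, all below 74.4 to 96.4 CPM in CML. Its log2 fold change was −0.34 (edgeR adjusted p = 0.692), and −1.08 without CML-TKI 1 (adjusted p = 0.0206), the only 1 of the 8 fits that leave out a library to call it, with an adjusted p of up to 0.915 in the others.

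**Figure D2:**
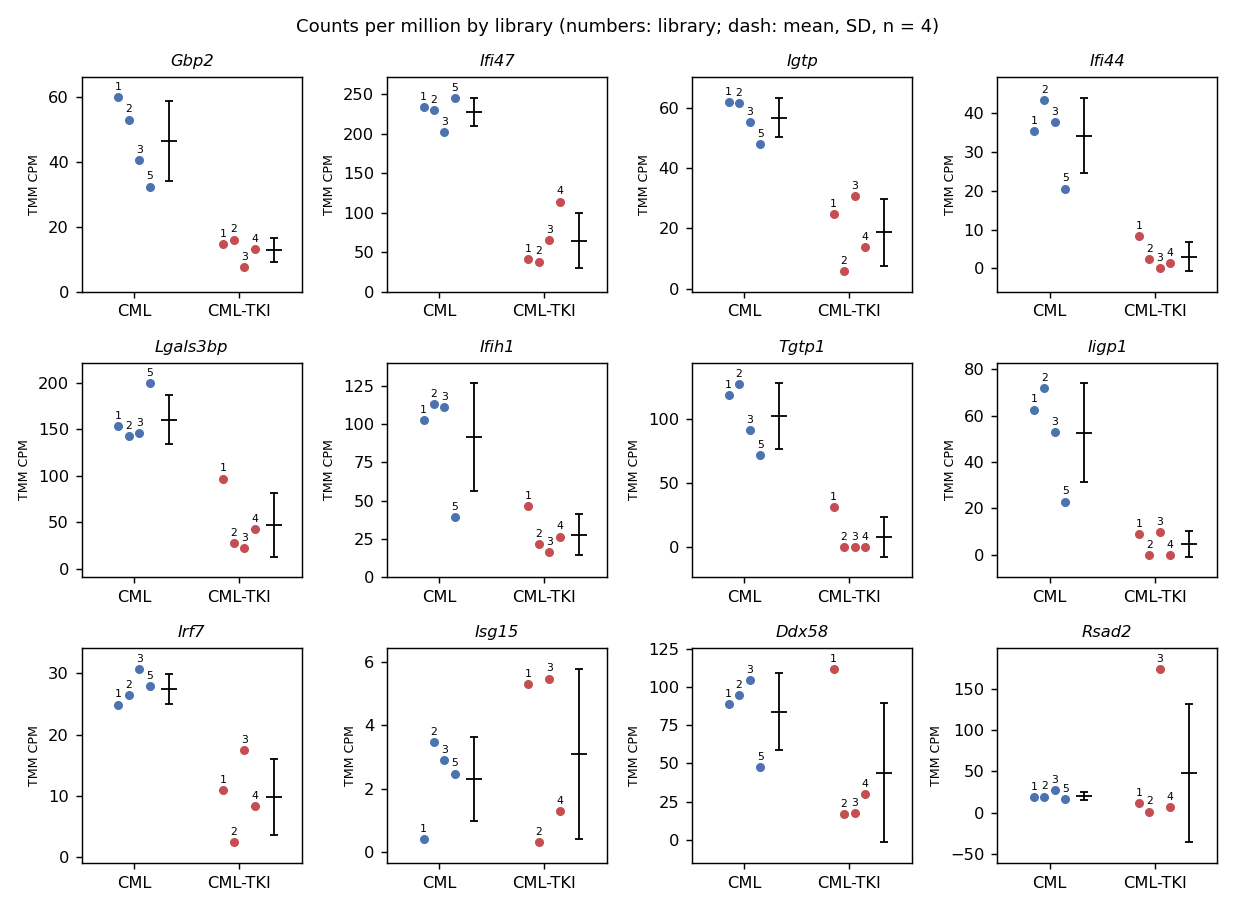
TMM-scaled CPM of 12 interferon-stimulated genes in each library, with the library number beside each point and the mean and SD of each group (n = 4) to its right. Gbp2, Ifi47, Igtp, Ifi44, Lgals3bp, Tgtp1, Iigp1 and Irf7 show no overlap between the groups, while Ddx58 is high in CML-TKI 1 and Rsad2 in CML-TKI 3.

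Among the genes of RNA and DNA sensing, all 6 members had a negative log2 fold change (50% of all genes did), with a median of −0.81. Only Ifih1 passed the edgeR test (3.93% of all genes were called lower), while DESeq2 called 2 lower (8.6% of all genes) and limma-voom 3 (10.9%). In 2 of the 6 the groups did not overlap (13.1% of all genes). Ifih1 (chr2:62595618-62646255) encodes MDA5, a sensor of long double-stranded RNA. It measured 103, 113 and 111 CPM in CML 1 to 3, 39.3 CPM in CML 5, and 46.7, 21.7, 16.4 and 26.5 CPM in CML-TKI 1 to 4. CML 5 stood apart from the other CML libraries and fell below CML-TKI 1, so the groups overlapped (log2 fold change −1.69 ± 0.41 SE, edgeR adjusted p = 0.0303). Without CML 5 the log2 fold change was −1.95 with an adjusted p of 0.0187, but the call held in only 2 of the 8 fits that leave out a library, with an adjusted p of up to 0.0904. Ddx58, which encodes the RNA sensor RIG-I, measured 89.1, 94.6, 105 and 47.4 CPM in CML and 112, 16.7, 17.5 and 29.9 CPM in CML-TKI libraries. CML-TKI 1 was thus above every CML library and the other CML-TKI libraries below every one, with a log2 fold change of −0.90 over all libraries (adjusted p = 0.369) and of −1.95 without CML-TKI 1 (edgeR adjusted p = 0.00585). No other of the 8 fits that leave out a library called Ddx58, and their adjusted p reached 0.559. Dhx58, the regulator LGP2 of these sensors, measured 29.8, 35.7, 37.1 and 33.0 CPM in CML and 12.7, 19.2, 26.3 and 13.5 CPM in CML-TKI libraries, groups that do not overlap (log2 fold change −0.95 ± 0.31 SE, edgeR adjusted p = 0.0852).

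The other 3 genes of this group differed less. Zbp1, a sensor of Z-form nucleic acids, measured 9.94, 13.5, 11.6 and 9.21 CPM in CML and 7.60, 6.51, 7.67 and 5.20 CPM in CML-TKI libraries, again without overlap (log2 fold change −0.72 ± 0.41 SE, edgeR adjusted p = 0.309). Eif2ak2, the kinase PKR that stops translation on double-stranded RNA, had a log2 fold change of −0.32 and its lowest value, 14.0 CPM, in CML 5. Adar, whose enzyme edits adenosines in double-stranded RNA, measured 132, 136, 140.1 and 137 CPM in CML and 124, 109, 153 and 139 CPM in CML-TKI libraries. Its log2 fold change of −0.06 ± 0.19 (SE) lay within the spread of the libraries.

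All 5 members of the OAS family had a negative log2 fold change (50% of all genes did), with a median of −1.69. None passed the edgeR test after adjustment, 4 were lower at an unadjusted p under 0.05 (12.1% of all genes), and 2 were called lower by DESeq2 and 2 by limma-voom, whose shares over all genes are the 8.6% and 10.9% given above. OAS proteins make the short oligoadenylates that activate the nuclease RNase L, an activity that OASL1 lacks. Oasl2 came closest to the threshold, with 52.6, 62.7, 55.5 and 35.1 CPM in CML and 24.9, 10.2, 20.8 and 3.90 CPM in CML-TKI libraries (log2 fold change −1.80 ± 0.51 SE, edgeR adjusted p = 0.0509). Oasl1 measured 6.13, 7.53, 7.15 and 11.3 CPM in CML and 2.47, 0.930, 0 and 4.68 CPM in CML-TKI libraries (log2 fold change −1.83 ± 0.76 SE, edgeR adjusted p = 0.162). For both genes every CML-TKI library was below every CML library, but Oasl1 was near or under the floor in CML-TKI 2 and CML-TKI 3. Oas1a measured 31.3, 44.6, 36.3 and 38.2 CPM in CML and 18.6, 25.1, 28.5 and 10.4 CPM in CML-TKI libraries, also without overlap (log2 fold change −0.89 ± 0.34 SE, edgeR adjusted p = 0.133). Oas3 had a log2 fold change of −1.69 (edgeR adjusted p = 0.0868) and overlapped because CML-TKI 3, at 60.3 CPM, exceeded CML 5, at 55.1 CPM. Oas2, at 39.5 CPM in CML-TKI 3 against 3.10 to 10.6 CPM in the other CML-TKI libraries, had a log2 fold change of −0.10.

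Of the 4 transcription factors of the pathway none passed the edgeR test after adjustment, 2 were lower at an unadjusted p under 0.05 (12.1% of all genes), and 1 was called lower by DESeq2 (8.6% of all genes) and 1 by limma-voom (10.9% of all genes). Irf7, which amplifies type I interferon production and is itself induced by it, measured 24.9, 26.4, 30.7 and 27.9 CPM in CML and 11, 2.48, 17.5 and 8.32 CPM in CML-TKI libraries. The CML libraries lay close together and above all CML-TKI libraries (log2 fold change −1.54 ± 0.50 SE, edgeR adjusted p = 0.0826). Irf9, the DNA-binding subunit of the complex with STAT2, measured 76.1, 74.1, 98.0 and 84.7 CPM in CML and 70.3, 49, 48.2 and 70.2 CPM in CML-TKI libraries, a smaller difference without overlap (log2 fold change −0.48 ± 0.22 SE, edgeR adjusted p = 0.212). Stat2 measured 30.0, 33.8, 31.9 and 19.1 CPM in CML and 28.1, 28.2, 32.9 and 41.1 CPM in CML-TKI libraries. These groups overlapped, with a log2 fold change of 0.18 ± 0.28 (SE) and an edgeR adjusted p of 0.738. Irf1, an early target of interferon, was between 44.2 and 45.8 CPM in 3 CML-TKI libraries and 75.6 CPM in CML-TKI 3, against 69.3 to 91.3 CPM in CML (log2 fold change −0.64 ± 0.24 SE, edgeR adjusted p = 0.126).

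The ISG15 system attaches the ubiquitin-like protein ISG15 to other proteins. Isg15 itself was among the lowest of the 49 genes, at 0.409, 3.47, 2.90 and 2.47 CPM in CML and 5.32, 0.310, 5.48 and 1.30 CPM in CML-TKI libraries. It was thus at or near the floor in several libraries, and its log2 fold change of 0.36 ± 0.95 (SE) says little about its direction. Usp18, which removes ISG15 and restrains interferon receptor signalling, had a log2 fold change of −0.76 (edgeR adjusted p = 0.320), and Herc6, the ligase of ISG15 in mice, one of −0.23. Trim25, the ubiquitin ligase of RIG-I, measured 154, 164, 177 and 121 CPM in CML and 188, 118, 210.4 and 139 CPM in CML-TKI libraries, so that the groups overlapped fully (log2 fold change 0.08 ± 0.24 SE).

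IFIT proteins bind foreign RNA at its end. Ifit2 lay below every CML library in all CML-TKI libraries, with 46.6, 49.4, 56.8 and 21.7 CPM in CML and 17.9, 3.72, 12.1 and 18.5 CPM in CML-TKI libraries (log2 fold change −1.73 ± 0.50 SE, edgeR adjusted p = 0.0554). Ifit1 measured 6.32 to 18.4 CPM in CML, 43.3 and 7.67 CPM in CML-TKI 1 and CML-TKI 3, and 0 in the other 2 CML-TKI libraries. Ifit3 showed the same split, with 10.6 and 18.6 CPM in CML-TKI 1 and CML-TKI 3 and 0 in the other 2, against 1.51 to 3.67 CPM in CML. The CML-TKI libraries therefore lay on both sides of the CML libraries for these 2 genes, with log2 fold changes of −0.11 ± 1.30 (SE) and 1.55 ± 1.34 (SE), and Ifit3 may share reads with its copy Ifit3b. Their sum was 12.9, 0, 18.6 and 3.90 CPM in CML-TKI 1 to 4 against 2.45 to 4.83 CPM in CML, so that CML-TKI 4 lay within the CML range once the copies were added.

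The genes of the IFITM proteins, which block the fusion of viruses with cell membranes, were the most abundant members per length of exons. In CML libraries Ifitm3 reached 171 ± 33.3 CPM per kb (SD, n = 4), Ifitm2 167 ± 63.5, Ifitm1 139 ± 43.9 and Ifi47 121 ± 9.62, with Lgals3bp next at 68.9 ± 11.3. Neighbours among the first 4 thus do not differ beyond their spread, while Ifi47 and Lgals3bp do. In CML-TKI libraries the same 4 genes came first, and Ifi47 was then at 34.4 ± 18.7 CPM per kb. Tgtp1 went from rank 7 to rank 43 of the 49 genes and Iigp1 from rank 23 to rank 47. Ifitm3 measured 107, 105, 103 and 149.9 CPM in CML and 65.5, 85.5, 38.4 and 53.6 CPM in CML-TKI libraries (log2 fold change −0.92 ± 0.27 SE, edgeR adjusted p = 0.0591). Ifitm2 measured 90.2, 84.2, 92.4 and 172 CPM in CML and 61.9, 70.0, 82.2 and 67.9 CPM in CML-TKI libraries (log2 fold change −0.64 ± 0.27 SE, edgeR adjusted p = 0.165). In both genes the groups were apart and CML 5 was the highest library. Ifitm1 had a log2 fold change of −1.01 (edgeR adjusted p = 0.303) and was at 10.1 CPM in CML-TKI 4. The 3 genes lie side by side on chromosome 7 and are alike in sequence, and their sum was 302 to 544 CPM in CML and 132 to 272 CPM in CML-TKI libraries.

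Of the other antiviral genes at membranes, Bst2 (tetherin, which holds virus particles at the cell surface) and Rsad2 (viperin, which makes a chain-terminating nucleotide) each had a library that stood apart. Bst2 was 45.0 CPM in CML-TKI 1 and 14.8 to 15.5 CPM in the other CML-TKI libraries, against 11.4 to 21.6 CPM in CML. Its log2 fold change was 0.60, and 0.0047 without CML-TKI 1 (edgeR adjusted p = 0.994). Rsad2 was 174 CPM in CML-TKI 3 and 11, 1.24 and 6.24 CPM in CML-TKI 1, 2 and 4, against 16.5 to 26.9 CPM in CML. Without CML-TKI 3 the log2 fold change of Rsad2 turned from 1.17 to −1.68. Cmpk2, the neighbour of Rsad2 on chromosome 12, did not follow it, with 28.3, 36.9, 25.2 and 31.7 CPM in CML-TKI libraries and a log2 fold change of −0.31. The ADP-ribosyltransferase Parp9 (log2 fold change −0.32), its ubiquitin ligase partner Dtx3l and Parp14 (0.01) overlapped between the groups. Dtx3l measured 195, 210.0, 204 and 96.4 CPM in CML and 98.0, 112, 125 and 153 CPM in CML-TKI libraries. The low value of CML 5 made the groups overlap (log2 fold change −0.53 ± 0.28 SE, edgeR adjusted p = 0.269), and without CML 5 the log2 fold change was −0.74 ± 0.19 (SE, edgeR adjusted p = 0.0545). The annotated positions of Parp9 and Dtx3l overlap, so their reads may be shared.

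Among the remaining 9 members, Ifi44 and Lgals3bp fell (3.93% of all genes were called lower). Ifi44 (chr3:151730922-151749910), measured 35.4, 43.4, 37.7 and 20.6 CPM in CML and 8.36, 2.48, 0 and 1.30 CPM in CML-TKI libraries. The groups did not overlap and the CML level was 9.86 times the CML-TKI level in the fit, the largest fitted change of the 6 genes (log2 fold change −3.30 ± 0.72 SE, edgeR adjusted p = 0.0187). Ifi44 had no count in CML-TKI 3, where the floor is 3.29 CPM, and lay near the floor of 0.780 CPM in CML-TKI 4. The fold of Ifi44 therefore rests partly on values at or near the floor. Without CML-TKI 1 its log2 fold change was −4.45 (edgeR adjusted p = 0.00114), and of the 8 fits that leave out a library 5 kept its call, with an adjusted p of up to 0.064 in the rest. Lgals3bp (chr11:118392747-118401959), a secreted glycoprotein that binds galectins, measured 154, 143, 146 and 199.6 CPM in CML and 97.1, 27.6, 21.9 and 42.7 CPM in CML-TKI libraries. CML-TKI 1 was the highest CML-TKI library for both genes, but still below every CML library (log2 fold change of Lgals3bp −1.73 ± 0.43 SE, edgeR adjusted p = 0.0303). Without CML-TKI 1 that of Lgals3bp was −2.36 (edgeR adjusted p = 0.000658), while each of the 7 other left-out libraries ended its call, with an adjusted p of up to 0.0817. Rtp4 was 14.2 CPM in CML-TKI 1 and 0, 1.1 and 0 CPM in CML-TKI 2 to 4, against 10.6 to 16.2 CPM in CML (log2 fold change −1.68 ± 1.21 SE). Ifi27, Samd9l, Xaf1 and Ifi35 had log2 fold changes of −0.85, −0.66, −0.37 and −0.16, and Trim30a and Sp100 of 0.32 and 0.58, all with overlap between the groups.

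The CML-TKI libraries differed among themselves over these genes. The median SD of log2 CPM was 0.77 for the members and 0.66 for all tested genes in CML-TKI, and 0.38 and 0.31 in CML. In CML-TKI 1 to 4, respectively 23, 34, 27 and 33 of the 49 genes lay below every CML library, against 32.0%, 41.9%, 44.0% and 37.5% of all genes. The median member lay 0.62, 1.37, 0.58 and 0.99 log2 units below the CML mean in these libraries. The median was thus negative in each CML-TKI library, and lowest in CML-TKI 2. CML-TKI 3 had the highest value of its group for 20 members, against 25.7% of all genes, and CML-TKI 1 for 15, against 31.0% of all genes, a share of the members near that background. Among the CML libraries, CML 5 was the lowest for 29 of the 49 genes, against 40.7% of all genes, and its median log2 CPM over the members was 5.04 against 5.73 to 5.74 in CML 1 to 3.

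**Figure D3:**
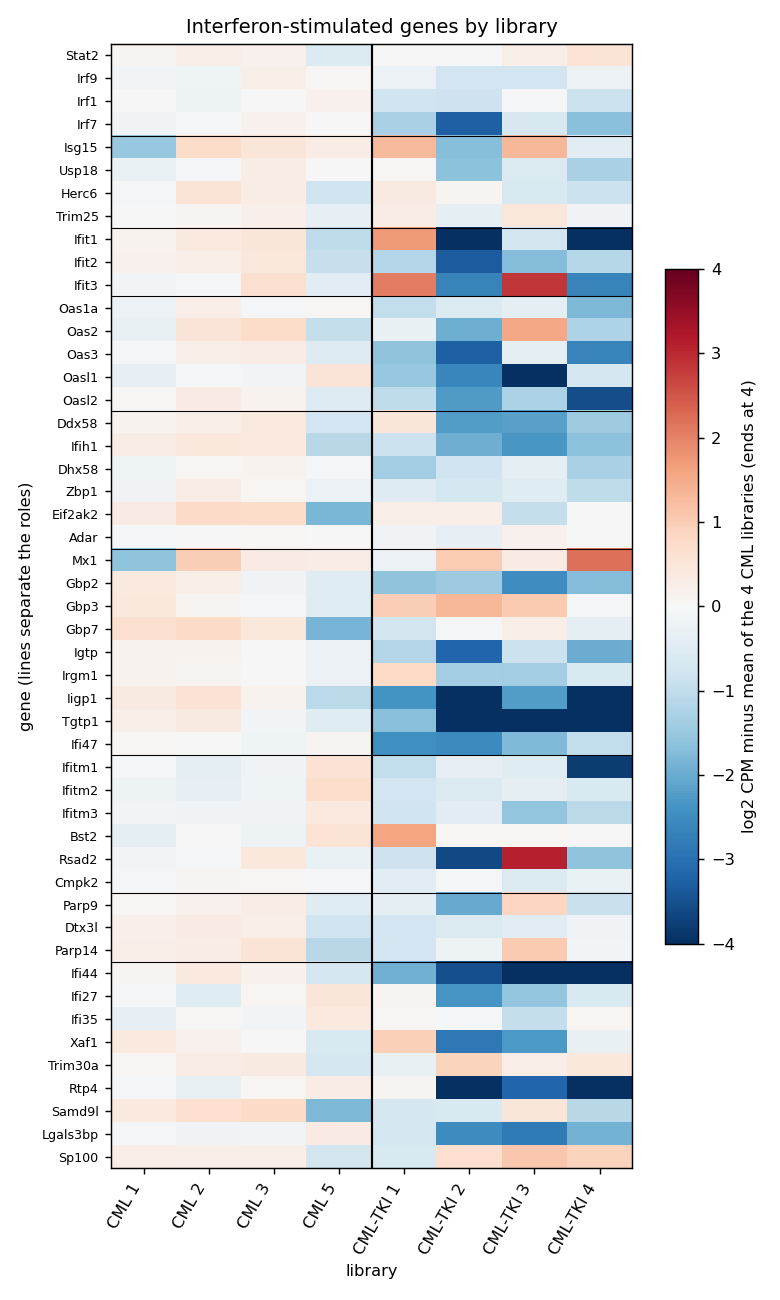
Log2 CPM of the 49 genes in each library minus the mean of the 4 CML libraries, with blue for lower and red for higher values, the scale ending at 4 in both directions, and lines that separate the roles. Blue prevails in CML-TKI 2 and CML-TKI 4, while red cells stand in CML-TKI 1 for Ifit1, Ifit3 and Bst2 and in CML-TKI 3 for Rsad2, Ifit3 and Oas2.

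The number of genes called depended on the libraries used. Without CML-TKI 1, 13 members were lower (edgeR adjusted p under 0.05, against 11% of all genes), namely the 6 genes above with Ifit2, Oasl2, Ddx58, Irgm1, Iigp1, Tgtp1 and Rtp4. Without CML 5 the count was 4 (against 2.10% of all genes), and it was 2 without CML 1, CML 2 or CML 3 in turn (1.15%, 1.4% and 1.35% of all genes). It was 5 without CML-TKI 2 (2.82%), 8 without CML-TKI 3 (4.17%) and 3 without CML-TKI 4 (3.06%). Gbp2 and Ifi47 were called lower in each of these 8 fits, Ifi44 in 5, Igtp in 3, Ifih1 in 2 and Lgals3bp in 1.

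Neighbouring genes of this set did not always move alike. On chromosome 11, Irgm1, Tgtp1 and Ifi47 lie within chr11:48865245-49096987, and their log2 fold changes were −0.34, −3.55 and −1.81. Gbp7, Gbp3 and Gbp2 lie within chr3:142530336-142638008, with log2 fold changes of −0.48, 0.89 and −1.82. Oasl2 and Oasl1 (chr5:114896926-114937911) had values close to each other, −1.80 and −1.83, and both showed no overlap between the groups.

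The other genes of the interferon pathway were taken from lists by function. Of 81 further interferon-stimulated genes tested, 11 were lower (against 3.93% of all genes) and 3 higher (against 6.29% of all genes, a share above theirs) in CML-TKI LSCs, with 54 negative and a median log2 fold change of −0.49. The genes that fell included Cd274, which encodes the checkpoint ligand PD-L1 (log2 fold change −1.95 ± 0.28 SE, edgeR adjusted p = 0.00281), Pml, the scaffold of nuclear bodies (−1.48 ± 0.22), Tap1, the peptide transporter of antigen presentation (−1.19 ± 0.20), Uba7, the enzyme that activates ISG15 (−1.57 ± 0.29), and Tgtp2 (−3.13 ± 0.48). Cd274 measured 64.1, 58.7, 57.4 and 46.5 CPM in CML and 18.6, 12.4, 9.86 and 16.7 CPM in CML-TKI libraries. Uba7 measured 189, 221, 194 and 213 CPM in CML and 78.1, 34.4, 89.9 and 73.9 CPM in CML-TKI libraries, so these 2 genes were apart between the groups without exception. The 3 genes that rose were Ifi30, a lysosomal thiol reductase of antigen-presenting cells (3.75 ± 0.46), Slfn2 (2.10 ± 0.38) and Ms4a4c. Ms4a4c had fewer than 3 counts, the floor, in all CML libraries and was at 5.89 to 35.9 CPM in CML-TKI libraries, so it could be tested only through the CML-TKI libraries and no fold is given.

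Of 17 receptors, kinases and regulators tested, 2 were called higher (6.29% of all genes), with a median log2 fold change of 0.55 over the list. These were both chains of the interferon gamma receptor. Ifngr2 measured 10.8, 12.4, 16.0 and 17.2 CPM in CML and 32.9, 85.5, 49.3 and 60.4 CPM in CML-TKI libraries (log2 fold change 2.02 ± 0.34 SE, edgeR adjusted p = 0.00654). Ifngr1, named after its values were seen, had 57.8 to 62.2 CPM in CML and 78.3 to 257 CPM in CML-TKI libraries (log2 fold change 1.69 ± 0.34 SE, edgeR adjusted p = 0.0125). Every CML-TKI library was above every CML library for both chains, and CML-TKI 1 was the lowest of its group.

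Of 9 other genes of IRF factors and of proteins that bind IRF2, 3 were called higher (6.29% of all genes), of which Irf4 was tested only through the CML-TKI libraries. Irf8, a factor of monocyte and dendritic cell fate that is also in the monocyte marker list, measured 7.22, 2.70, 6.76 and 8.80 CPM in CML and 71.0, 318, 246 and 356 CPM in CML-TKI libraries (log2 fold change 5.26 ± 0.57 SE, edgeR adjusted p = 0.00087). Irf5 had a log2 fold change of 2.52 ± 0.46 (SE), and Irf4, named after its values were seen, was at 0.275 to 0.772 CPM in CML, near the floor, and at 2.08 to 42.8 CPM in CML-TKI libraries. Of 21 sensors and adaptors, 3 were called higher (6.29% of all genes), a count that includes 2 genes tested only through the CML-TKI libraries. One of them is Tlr8, an endosomal receptor for RNA, with 0.136 to 0.966 CPM in CML and 9.69 to 57.0 CPM in CML-TKI libraries. Tlr9 and Unc93b1, the other genes of this list called higher, are named after their values were seen. Tlr9 was at 0 to 0.580 CPM in CML and 3.29 to 16.1 CPM in CML-TKI libraries, and Unc93b1 had a log2 fold change of 2.27. Irf4, Tlr8 and Tlr9 lay at or near the floor in CML and entered the test through the CML-TKI libraries, so no fold is given for them. The genes of these lists that rose, Ifi30 and Ms4a4c included, did so along with the granulocyte and monocyte markers given above, whose part in these values was not tested. Of 21 interferon genes 2 were in the table and neither had enough counts to be tested, with summed levels of 0 to 1.04 CPM, at or near the floor of the libraries.

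**Figure D4:**
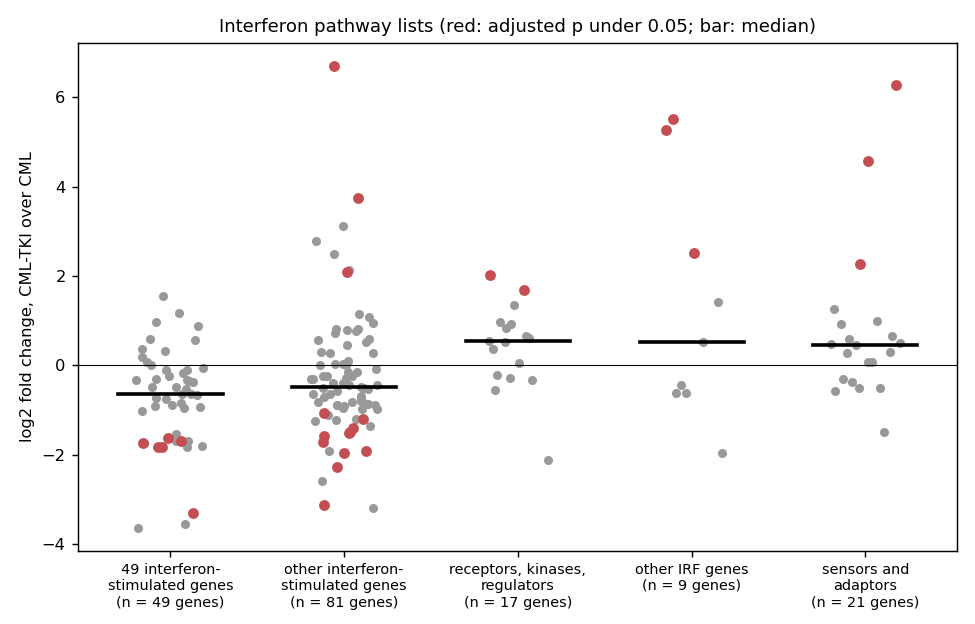
Log2 fold changes (CML-TKI over CML) of the 49 interferon-stimulated genes and of 4 further lists of the interferon pathway, each point a tested gene, with red for an edgeR adjusted p under 0.05 and a bar for the median; genes near the floor in CML, such as Ms4a4c and Tlr8, are placed by their fitted values. The medians are −0.64 and −0.49 for the 2 lists of interferon-stimulated genes and 0.55, 0.53 and 0.46 for receptors, other IRF genes and sensors.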

How the data were processed

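LSCs of untreated and imatinib-treated CML mice were profiled by RNA-seq (4 libraries each). The authors prepared Nextera XT libraries from total RNA, aligned paired reads to mm10 with STAR (2.6.1d) and quantified RefSeq transcripts in Partek Flow (Partek 8.0), and deposited unnormalized estimated counts for each gene. Close copies, overlapping and antisense genes are uncertain, since the handling of shared reads and strand was not given in the sources used here.

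Counts were rounded and tested with edgeR 4.0.16 (R 4.3.3, TMM, filterByExpr with minimum count 10 and minimum total 15, robust quasi-likelihood test) on all genes. P-values were adjusted by Benjamini-Hochberg (threshold 0.05), each standard error was taken as the log2 fold change over the square root of F, and log2 CPM had a prior count of 2. Levels per length divide CPM by the total length of a gene's exons, overlaps counted once, in the GENCODE basic annotation of GRCm38. Gene positions come from a RefSeq gene table of GRCm38, which matched all 49 genes. The script was tested on simulated data. DESeq2 1.42.0, limma 3.58.1, other normalizations, the filter, the replicate block and left-out libraries served as alternatives.

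The members and lists were chosen with earlier results of these data known. Values in every library are given by rule for members past the threshold or without overlap between groups, the 3 most abundant of the rest, Stat2, Irf9, Irf7 and Isg15, and outside the members at most 12 genes with the smallest adjusted p are named. A gene that the rule also names is not reported here. Others were chosen after their values were seen.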

Additional observations from a re-analysis of the deposited data

Results flagged for a closer look

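In 13 of 100 measures checked (each gene in each group, and the median of the 49 genes), 1 of the 4 libraries of a group stood far from the other 3. Chance alone marks about 1 in 20 such groups.

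CML 5 stood apart in 6 of them. It was low for Ifih1 (39.3 CPM, others 103 to 113), Dtx3l (96.4 CPM, others 195 to 210.0) and Sp100 (26.5 CPM, others 51.8 to 52.6), high for Ifitm2 (172 CPM, others 84.2 to 92.4) and Ifitm3 (149.9 CPM, others 103 to 107), and low in the median log2 CPM of all 49 genes (5.04, others 5.73 to 5.74).

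CML-TKI 1 was high for Ddx58 (112 CPM, others 16.7 to 29.9), Tgtp1 (30.8 CPM, all others 0), Bst2 (45.0 CPM, others 14.8 to 15.5) and Rtp4 (14.2 CPM, others 0 to 1.1). CML-TKI 3 was high for Irf1 (75.6 CPM, others 44.2 to 45.8) and Rsad2 (174 CPM, others 1.24 to 11) and low for Ifi35 (9.86 CPM, others 18.9 to 20.6). CML-TKI 3 is the shallowest library, in which the floor of 3 counts equals 3.29 CPM.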

How the results depend on the processing

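Under 18 alternatives no member was called higher. The count of members called lower was 6 with RLE normalization, without Rn45s and without the filter, 4 with total counts as library size, 12 with DESeq2, 17 with limma-voom and quality weights, and 7 after all libraries were thinned to the smallest total (43 members tested, chosen after seeing the data). All genes called numbered 1220 in the edgeR fit, 2157 with DESeq2 and 2544 with limma-voom, and the median member log2 fold change was −1.03 with limma-voom. With CML 1 to 3, the least variable libraries, summed to 1 library, edgeR called 0 members (9 lower at an unadjusted p under 0.05) and 122 genes. With the replicate block over the 3 shared numbers, 1 member and 193 genes were called, with a median member of −0.72, against 4 members and 589 genes in the same 6 libraries without the block. Correlations of same-numbered libraries were −0.02, 0.15 and 0.09, so the numbers were not taken as pairs. Leaving out each library gave 2 to 13 members called lower, 505 to 2504 genes called and medians of −0.80 to −0.47.

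Of 876 gene values under the alternatives, 771 kept their direction and side of the threshold, 38 lost and 32 gained a call, and 35 changed sign, none of them for the 6 genes called lower. Over the alternatives the adjusted p of Gbp2 was 3.69e-06 to 0.174, of Ifi47 1.04e-05 to 0.116, of Ifi44 2.43e-05 to 0.224, of Ifih1 0.00126 to 0.306, of Igtp 0.00245 to 0.31 and of Lgals3bp 0.000658 to 0.18. Log2 fold changes that changed sign were, with total counts, −0.026 for Parp14; without the filter, −0.035 for Parp14; with limma-voom, −0.10 for Trim25, −1.25 for Ifit3, −1.49 for Rsad2, −0.40 for Parp14 and 0.093 for Ifi35; with the replicate block, −0.093 for Stat2, −0.46 for Rsad2 and −0.34 for Parp14; with CML 1 to 3 summed, 0.0024 for Herc6, 0.15 for Ifit1, 0.24 for Oas2 and 0.11 for Eif2ak2; after thinning, 0.065 for Oas2; in the 6 libraries without the block, −0.095 for Stat2, 0.079 for Ifit1 and −0.17 for Parp14. Over the left-out libraries the log2 fold change ranged from −1.17 to 0.23 for Oas2, −3.26 to 0.31 for Ifit1, −0.046 to 0.21 for Trim25, −0.44 to 0.21 for Parp14, −0.29 to 0.75 for Isg15, −0.12 to 0.019 for Adar, −1.68 to 1.58 for Rsad2, −0.26 to 0.022 for Ifi35 and −1.43 to 0.020 for Xaf1. Where a call or sign changed, the cause was not tested. Depth limits values near the floor of 3 counts, such as those of Isg15 and Oasl1.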
